A study of Arabidopsis thaliana with 12 samples.

Results

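LHB1B2 (AT2G34420) and PSAN (AT5G64040) encode 2 proteins of the photosynthetic machinery of the chloroplast, one in the light-harvesting antenna and one in photosystem I, and each has a probe of its own on the array. They were taken by probe number and stand for 2 of the 3439 probes measured. Total RNA of the Arabidopsis thaliana mutant mak3 was read on 6 arrays and that of wild-type (WT) plants on 6 arrays, both in ecotype Columbia 0. According to the labels, mak3 lacks normal function of a cytoplasmic N-acetyltransferase. The comparison asks whether transcript levels depend on that enzyme, and in the study that the labels cite the mutant was examined for its photosynthesis. No tissue, plant age, growth condition or type of allele is given in the sources used here.

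Light for photosynthesis is gathered by antenna proteins that bind chlorophyll and pass the energy to 2 photosystems. LHB1B2 belongs to the LHCB1 family of chlorophyll a/b-binding proteins, which together with LHCB2 and LHCB3 proteins form the trimeric antenna complex LHCII. LHCII serves mainly photosystem II, and a part of it can move to photosystem I when it is phosphorylated. PSAN is a small subunit of photosystem I on the lumen side of the membrane, where plastocyanin delivers electrons, and Arabidopsis plants without it pass electrons from plastocyanin to photosystem I less efficiently. Both genes lie in the nucleus, and their products are imported into the chloroplast.

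LHCB1 genes have very similar coding sequences, and in the gene table LHB1B1 (AT2G34430) follows LHB1B2 directly. The probe sequences were not analysed here, so which family members the LHB1B2 probe reports was not tested. The probe names come from the platform annotation, and since the files name no genome build, no coordinates are given. Tissue could not be checked against markers, because the lists of seed storage, root and pollen genes had 0 probes. In bulk RNA, fewer cells of a type and less of a transcript per cell cannot be told apart.

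The deposited intensities are linear and have no stated unit. Their mean lay between 0.946 and 1.05 on every array, while the array medians ranged from 0.420 to 0.605. Within each genotype, array 1 resembled array 2, array 3 resembled array 4 and array 5 resembled array 6 as closely as repeat readings would, with log2 values across probes correlated at r = 0.976 to 0.994. Other arrays of the same genotype correlated at 0.842 to 0.941. Each such pair was therefore averaged and counted as 1 sample, which leaves n = 3 for each genotype. That the 2 arrays of a pair are repeat readings is inferred from these values and is not stated in the labels. The labels do not say whether the samples came from separate plants, so the spread that the p-values rest on may be technical.

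LHB1B2 gave one of the brightest signals of the series in both genotypes. As deposited, its intensity in mak3 was 5.65 and 6.09 on arrays 1 and 2, 10.3 and 12.2 on arrays 3 and 4, and 13.8 and 13.1 on arrays 5 and 6. In WT it was 8.28 and 9.54 on arrays 1 and 2, 12.3 and 13.1 on arrays 3 and 4, and 13.6 and 12.4 on arrays 5 and 6. Arrays 1 and 2 were the lowest of their genotype in both, and lower in mak3 than in WT, while on arrays 3 to 6 the genotypes overlapped. The averaged samples had 10.2 ± 3.89 in mak3 and 11.5 ± 2.29 in WT (SD, n = 3 each). The highest sample was 2.29 times the lowest in mak3 and 1.46 times the lowest in WT.

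As deposited, PSAN varied less between the samples of a genotype than LHB1B2 did. After quantile scaling this held in mak3 (log2 range 0.44 against 0.58) but not in WT (0.50 against 0.10). The deposited intensity of PSAN in mak3 was 3.18 and 3.11 on arrays 1 and 2, 4.74 and 4.50 on arrays 3 and 4, and 4.98 and 4.37 on arrays 5 and 6. In WT it was 4.63 and 4.66 on arrays 1 and 2, 4.27 and 4.58 on arrays 3 and 4, and 6.74 and 5.06 on arrays 5 and 6. The low samples were thus mak3 arrays 1 and 2, as for LHB1B2, and a single WT array, number 5, stood above all others. The averaged samples had 4.15 ± 0.868 in mak3 and 4.99 ± 0.795 in WT (SD, n = 3 each), and the ranges of the genotypes overlapped.

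**Figure D1:**
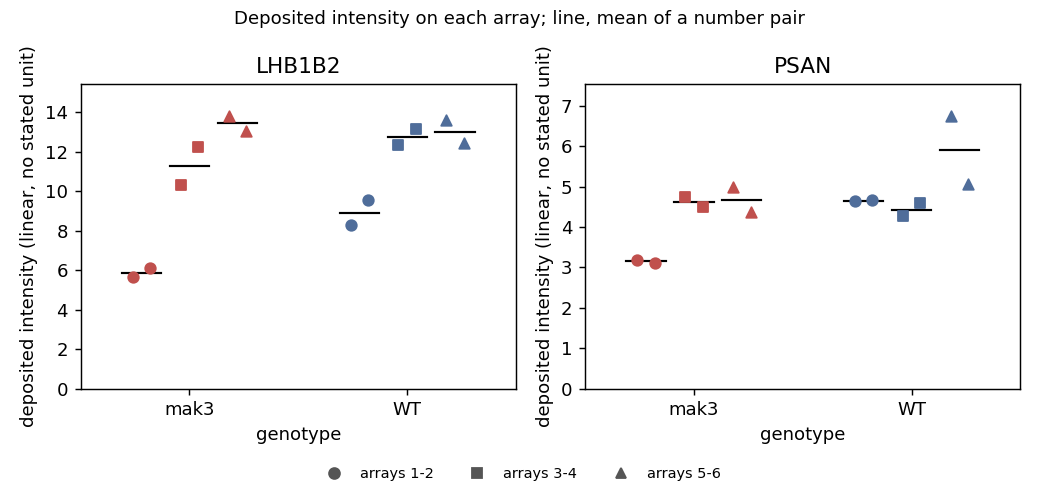
Deposited intensity (linear, no stated unit) of LHB1B2 (left) and PSAN (right) on each array of mak3 and WT. Each point is 1 array, symbols mark the pair of array numbers and a line is the mean of a pair; mak3 arrays 1 and 2 are the lowest points for both genes (5.65 and 6.09 for LHB1B2, 3.18 and 3.11 for PSAN).

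Repeat readings lay closer together than the genotypes in arrays 1 and 2, but not always in the other pairs. For LHB1B2, as deposited, the 2 arrays of a pair were 0.08 to 0.25 apart on the log2 scale, while mak3 minus WT was -0.60, -0.18 and 0.05 (pairs 1-2, 3-4 and 5-6). The widest gap, 0.25, was that of mak3 arrays 3 and 4, for which 8.08% of all probes were farther apart, and it was larger than the difference between the genotypes in that pair. In pair 5-6 the repeat readings of both genotypes also differed by more (0.08 in mak3 and 0.13 in WT) than the genotypes did.

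For PSAN the 2 arrays of a pair were 0.01 to 0.19 apart except in WT arrays 5 and 6, where array 6 minus array 5 was -0.41 and 3.84% of probes were farther apart. Its deposited mak3 minus WT difference was -0.56, 0.06 and -0.32 in the same order. The gaps between repeat readings were smaller than this in pair 1-2, larger in both genotypes in pair 3-4 (0.08 in mak3 and 0.10 in WT), and larger in WT in pair 5-6.

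The place of a probe in the order of brightness does not change with quantile scaling or with scaling by a factor, so it was compared next. LHB1B2 was between the 26th and the 46th brightest of 3439 probes on the mak3 arrays and between the 24th and the 30th on the WT arrays. By sample its mean place was 43, 29.5 and 30 in mak3 (pairs 1-2, 3-4 and 5-6), against 27, 27 and 25 in WT. All 3 mak3 samples thus had LHB1B2 at a lower place than all 3 WT samples, by an average of 34.2 ± 7.65 against 26.3 ± 1.15 (SD, n = 3 each). The two-sided exact permutation test gave p = 0.1, the smallest that 3 samples against 3 can give, so it could not pass 0.05. Groups that do not overlap were also seen, after quantile scaling, for 7.27% of all probes.

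PSAN was between the 67th and the 112th brightest probe on the mak3 arrays and between the 45th and the 79th on the WT arrays. By sample its place was 110, 78.5 and 73.5 in mak3, against 55, 75.5 and 51 in WT (87.3 ± 19.8 against 60.5 ± 13.1, SD, n = 3 each). The groups overlapped, since the mak3 sample of pair 5-6 stood above the WT sample of pair 3-4, and the exact permutation test gave p = 0.2 (two-sided).

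**Figure D2:**
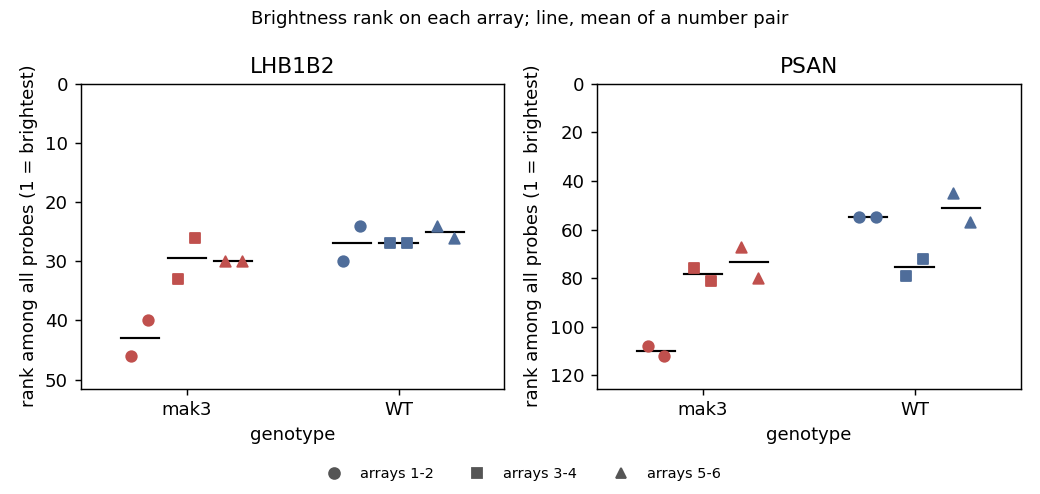
Place of LHB1B2 (left) and PSAN (right) among the 3439 probes of each array, 1 being the brightest and drawn at the top of an inverted axis, in mak3 and WT. Points are arrays and lines are means of a pair of array numbers; the mak3 samples of LHB1B2 (43, 29.5 and 30) lie below those of WT (27, 27 and 25), while those of PSAN overlap with WT.

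Neither gene passed the test of mak3 against WT. After quantile scaling the log2 level of LHB1B2 differed by -0.36 ± 0.18 between mak3 and WT (mak3 minus WT, SE, n = 3 each), with a 95% interval from -0.83 to 0.11, and PSAN one of -0.42 ± 0.19, with an interval from -0.91 to 0.07. In limma, with Benjamini-Hochberg adjustment over all probes, the adjusted p was 1 for both, and unadjusted p was 0.104 for LHB1B2 and 0.0767 for PSAN. The same fit called 0 of 3439 probes (0%) at an adjusted p under 0.05, while 3.9% of all probes had an unadjusted p under 0.05 and neither gene was among them. With the pair of array numbers as a block, the unadjusted p was 0.0901 for LHB1B2 and 0.0990 for PSAN in limma (adjusted p = 0.398 and 0.407). That fit gave 13.3% of all probes an unadjusted p under 0.05, again without these 2 genes. As a fold of the WT level, the 95% interval without the block ran from 0.563 to 1.08 for LHB1B2 and from 0.531 to 1.05 for PSAN, so the data do not settle the size of either difference.

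By pair of array numbers, the quantile-scaled difference of LHB1B2 was -0.69 for arrays 1-2, -0.14 for arrays 3-4 and -0.25 for arrays 5-6. That of PSAN was -0.77, -0.04 and -0.46 in the same order. Both genes were therefore lower in mak3 in all 3 pairs on this scale, as were 20.2% of all probes and 31 of the 100 brightest probes. In pair 3-4, however, the PSAN difference was smaller than the gaps between repeat readings. On the same scale, array 4 minus array 3 was -0.06 in mak3 and 0.10 in WT. For LHB1B2 that gap was 0.34 in mak3, larger than the genotype difference of that pair, and 0 in WT. Most of the difference lay in pair 1-2, where LHB1B2 in mak3 was at 0.618 of its WT level and PSAN at 0.587, and where 4.25% of all probes had a lower difference than LHB1B2 and 3.55% a lower one than PSAN. In pair 3-4 both genes were in the middle of all probes on this scale, with 35.6% of probes lower than LHB1B2 and 46.6% lower than PSAN. As deposited, these shares were 47.0% and 76.2%. In pair 5-6, 25.3% of probes were lower than LHB1B2 and 11.4% lower than PSAN after quantile scaling, but 86.4% and 60.8% as deposited. A separate fit that left out the arrays of pair 1-2 gave -0.21 for LHB1B2 and -0.26 for PSAN, which are not the plain averages of the pair values above.

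Pair 1-2 was the only one in which both genes were lower in mak3 under all 4 scalings. For LHB1B2 the size of the difference moved there almost as much as in pair 3-4. The LHB1B2 difference of pair 1-2 was -0.60 as deposited, -0.64 after scaling every array to a common median and -0.48 with cyclic loess. For PSAN it was -0.56, -0.61 and -0.54. In pair 5-6 the sign of LHB1B2 turned with the scaling, from -0.25 after quantile scaling and -0.21 with cyclic loess to 0.05 as deposited and 0.56 with a common median. PSAN in pair 5-6 was at -0.46 after quantile scaling, -0.51 with cyclic loess, -0.32 as deposited and 0.19 with a common median. In pair 3-4 LHB1B2 was at -0.18 as deposited, 0.02 with a common median and -0.22 with cyclic loess, and PSAN at 0.06, 0.26 and 0.03.

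The median of all probes gives the scale for these values. As deposited it was 0.02, -0.15 and -0.44 in pairs 1-2, 3-4 and 5-6, and it was between -0.01 and 0.02 in every pair with the other 3 scalings. Over the 3 pairs LHB1B2 averaged -0.24 as deposited, -0.02 with a common median and -0.30 with cyclic loess. PSAN averaged -0.27, -0.05 and -0.34. The mean kept its negative sign under these 4 scalings, but its size depended strongly on them. It ran from -0.36 (quantile) to -0.02 (common median) for LHB1B2 and from -0.42 to -0.05 for PSAN. The common-median values are close to 0 because other pairs offset pair 1-2 there. For LHB1B2 this was pair 5-6 (0.56), with 0.02 in pair 3-4. For PSAN it was both pair 3-4 (0.26) and pair 5-6 (0.19).

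**Figure D3:**
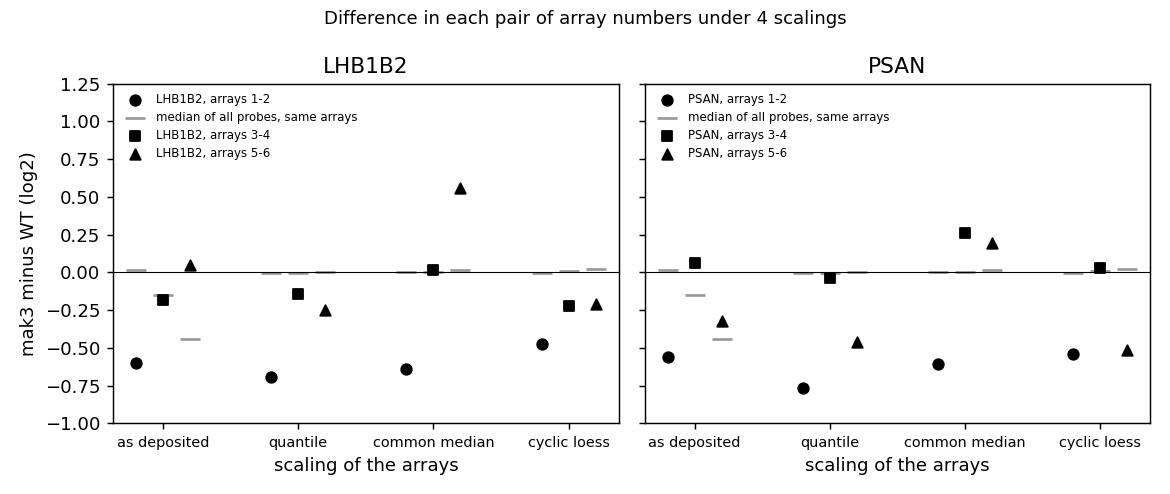
Difference of mak3 minus WT (log2) for LHB1B2 (left) and PSAN (right) in each pair of array numbers, under 4 scalings of the arrays, with the median of all probes as a grey bar. The circles of pair 1-2 stay between -0.48 and -0.77 for both genes, while LHB1B2 in pair 5-6 runs from -0.25 to 0.56.

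The levels by sample show where the scalings part. Quantile scaling brought the 3 WT samples of LHB1B2 to 11.4, 11.6 and 12.2 (pairs 1-2, 3-4 and 5-6), with 7.03, 10.6 and 10.2 in mak3. Scaling to a common median gave 5.60, 13.1 and 18.2 in mak3, against 8.75, 12.9 and 12.3 in WT. The mak3 sample of pair 5-6 is thus the lowest but one of all 6 by the first scaling and the highest by the second. On mak3 arrays 5 and 6, which have the lowest medians of the series, quantile scaling moved LHB1B2 by -0.43 and -0.35 on the log2 scale and the common median moved it by 0.44 on both.

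For PSAN quantile scaling gave 3.20, 4.13 and 4.35 in mak3, against 5.44, 4.25 and 6.03 in WT. With a common median it had 3.001, 5.38 and 6.33 in mak3, against 4.57, 4.50 and 5.59 in WT. The mak3 sample of pair 1-2 was the lowest of the 6 on both scales. Its level there was below the next lowest by more than the repeat readings of that pair differed (-0.03 on the log2 scale after quantile scaling, array 2 minus array 1).

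A factor that scales a whole array cancels when the 2 genes are set against each other. The difference of LHB1B2 minus that of PSAN, on the log2 scale, stood at -0.04 for pair 1-2, -0.24 for pair 3-4 and 0.37 for pair 5-6, as deposited and with a common median alike. The genes thus differed by nearly the same factor in pair 1-2, and in the other pairs their order was opposite, with an average of 0.03 over the 3 pairs.

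Both genes lie at the bright end of the array, where the median of other probes was also below 0 in pair 1-2. Ordered by mean brightness, LHB1B2 was at place 26 and PSAN at place 56. In pair 1-2, after quantile scaling, the median difference was -0.32 for the 50 brightest probes and -0.35 for the next 50, but -0.02 for places 101 to 200. In the 50 brightest, 32 probes were lower in mak3, and their interquartile range ran from -1.01 to 0.25, which includes the -0.69 of LHB1B2. For the next 50 it ran from -0.95 to 0.12, which includes the -0.77 of PSAN. In pairs 3-4 and 5-6 the medians of these 2 classes were between -0.06 and 0.00 on this scale. With a common median they were -0.31 and -0.10 in pair 1-2, 0.25 and 0.24 in pair 3-4, and 0.73 and 0.69 in pair 5-6, where LHB1B2 was at 0.56 and PSAN at 0.19. As deposited they were -0.27 and -0.06 in pair 1-2, 0.05 and 0.04 in pair 3-4, and 0.22 and 0.18 in pair 5-6. The part of this shift of bright probes in the differences of LHB1B2 and PSAN was not tested.

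**Figure D4:**
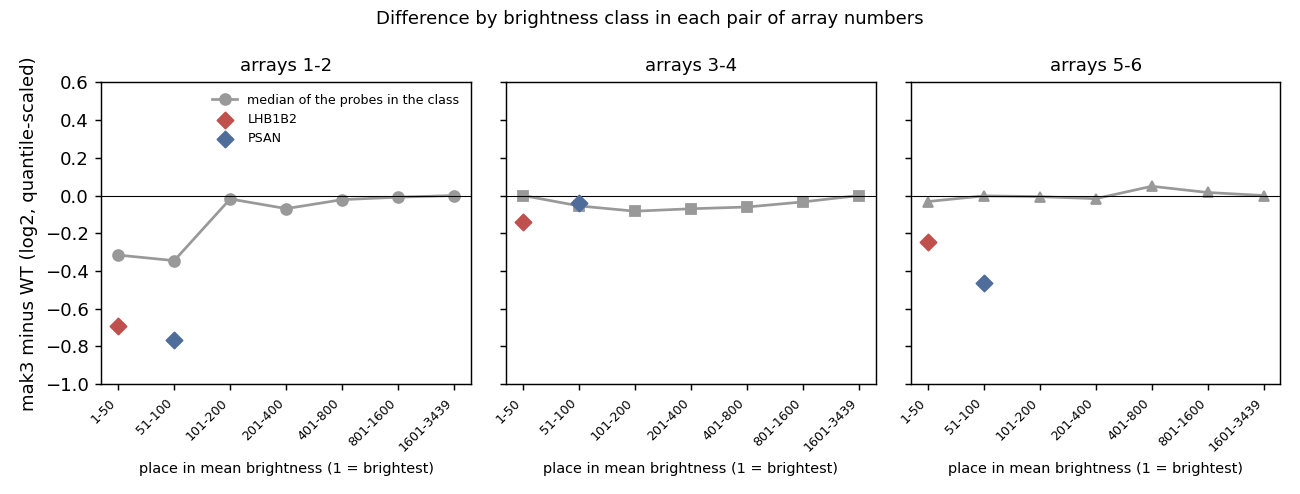
Difference of mak3 minus WT (log2, quantile-scaled) against place in mean brightness, in each pair of array numbers. Grey symbols are the medians of the probes in a brightness class, and diamonds are LHB1B2 (place 26) and PSAN (place 56); in pair 1-2 the 2 brightest classes lie at -0.32 and -0.35, and the genes at -0.69 and -0.77.

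Both genes lie in stretches of probe numbers with low differences in pairs 3-4 and 5-6. The running median over 49 probe numbers was -0.25 and -0.32 around LHB1B2 in pairs 3-4 and 5-6, and -0.30 and -0.35 around PSAN. In pair 1-2 it was -0.07 and 0.04. With the running median taken off, LHB1B2 was at -0.62, 0.11 and 0.07 in pairs 1-2, 3-4 and 5-6, and PSAN at -0.81, 0.26 and -0.11. The average over the pairs was then -0.14 for LHB1B2 and -0.22 for PSAN. On this scale the lower signal of LHB1B2 in mak3 lay in pair 1-2 alone. That of PSAN lay mainly in pair 1-2, with a smaller part in pair 5-6 (-0.11).

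Other genes of photosynthesis did not share a direction. Lists of the antenna, both photosystems, electron transport with ATP synthase, the Calvin cycle, and antenna delivery with state transitions had 9 probes in all, 7 of them with 1 gene, and all 9 were above the floor on every array. In limma 0 of the 9 passed and 0 had an unadjusted p under 0.05. After quantile scaling 6 were lower and 3 higher in mak3 with a median difference of -0.07. Among all probes 49.6% were lower in mak3 and the median was 0.00. Without LHB1B2 and PSAN, 4 of 7 were lower and the median was -0.06, or 0.15 with a common median.

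After quantile scaling the 2 genes had the lowest differences of the 9 probes. As deposited, PSAN was again the lowest (-0.27), but SBPASE (-0.27) and the other antenna probe (-0.25) lay below LHB1B2 (-0.24). With a common median these probes also lay below LHB1B2, at -0.04 and -0.03 against -0.02. The values that follow are those after quantile scaling. The photosystem II subunits PSBW and PSBY were at -0.07 ± 0.25 and 0.10 ± 0.31 on the log2 scale, and PSB27, an assembly and repair factor of photosystem II, at 0.36 ± 0.34 (SE, n = 3 against 3). The Calvin cycle enzymes SBPASE, sedoheptulose bisphosphatase, and PRK, phosphoribulokinase, were at -0.09 ± 0.10 and 0.03 ± 0.32. The other antenna probe, which names several genes, was at -0.20, with -0.31, -0.36 and 0.07 in pairs 1-2, 3-4 and 5-6. Of the other 7 probes 1 was lower in all 3 pairs, the electron transport probe that names several genes, with -0.12, -0.06 and -0.00257.

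Not every photosynthesis gene was low in pair 1-2. PRK was at -0.70 there, close to LHB1B2 and PSAN, but at 0.38 and 0.41 in pairs 3-4 and 5-6. PSBW, with a median deposited intensity of 20.6 on the mak3 arrays and 24.0 on the WT arrays, was at 0.23 in pair 1-2 and at -0.07 and -0.38 in the others. PSBY was at 0.33, -0.18 and 0.17.

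**Figure D5:**
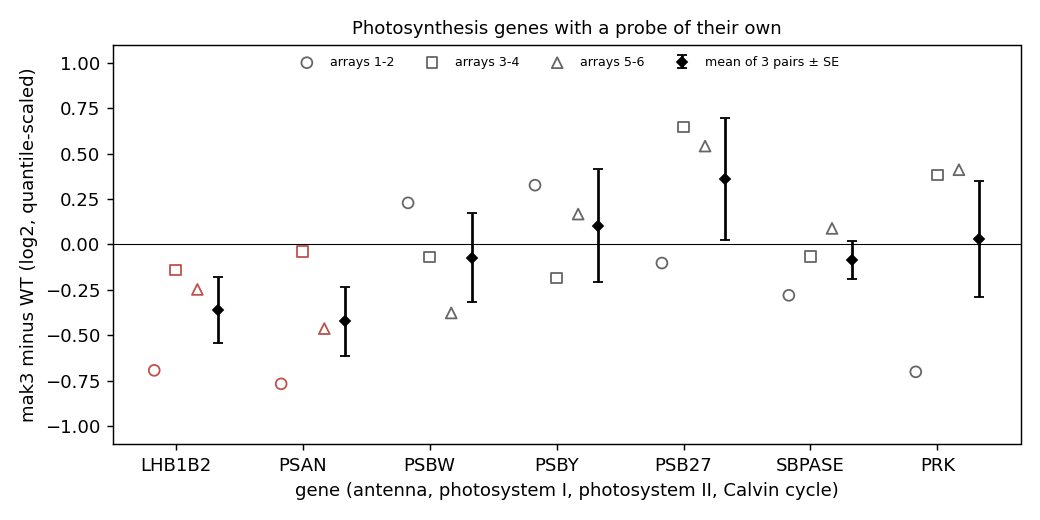
Difference of mak3 minus WT (log2, quantile-scaled) for the 7 photosynthesis genes with a probe of their own. Open symbols are the pairs of array numbers. Diamonds with bars are the mean difference and its SE from the limma fit without the pair block, not the SE of the 3 plotted pairs. LHB1B2 (-0.36) and PSAN (-0.42) have all 3 pairs below 0, and the other 5 genes have pairs on both sides.

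Across the 6 averaged samples the quantile-scaled log2 level of LHB1B2 was most like that of DRT101 (AT5G18070), with Pearson's r = 0.984 and Spearman's rho = 0.943 among 642 single-gene probes above the floor on all arrays. AT2G19280 (r = 0.954), AT1G63720 (0.944), the cyanase gene CYN (AT3G23490, 0.922) and AT3G54210, a plastid ribosomal protein gene (0.918), came next. PSAN was in place 14 with r = 0.854 (rho = 0.714). For PSAN itself, AT1G33250 was first (r = 0.900), LHB1B2 the second, and AT1G44830 (0.815), AT1G63720 (0.814) and AT4G12270 (0.805) followed. These values describe 6 samples that share pairs of array numbers. Without the mak3 sample of pair 1-2 and the WT sample of pair 5-6, the 2 farthest from the median, r between LHB1B2 and PSAN was 0.413 over the other 4, that of LHB1B2 with DRT101 was 0.897 and with AT1G63720 -0.38. For PSAN it was then 0.536 with AT1G33250, -0.05 with AT1G44830, -0.44 with AT1G63720 and -0.11 with AT4G12270. The likeness of PSAN to the last 3 of these, and of LHB1B2 to AT1G63720, thus rests on those 2 samples.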

How the data were processed

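The only values used are the intensities deposited by the authors in the series' value table, 1 for each of 12 arrays and 3439 probes, with no background signal and no detection call. Scanning, background correction and scaling of these deposited intensities are steps not given in the sources used here. Array medians differed by 44.1%, above a limit of 10%, so the arrays were quantile-scaled with limma 3.58.1 in R 4.3.3. Values under the 1st percentile of positive intensities (0.0396) were set to it, and log2 was taken. Consecutive arrays (1 with 2, 3 with 4, 5 with 6) of a genotype were averaged. Their deviations from the genotype mean correlated at r = 0.757 to 0.883, against at most -0.0641 between other arrays. Taking off the genotype mean itself pushes the correlations between other arrays below 0, so that contrast is partly set in advance. The log2 levels, without this step, correlated at 0.976 to 0.994 within pairs and at 0.842 to 0.941 between other arrays of a genotype. WT and mak3 samples of the same pair number also deviated together (r = 0.601, 0.556 and 0.738). On the evidence of the values alone, the samples thus look paired, and differences are also given by pair. The planned fit and the exact permutation tests leave the pair out, and a fit with the pair as a block stands beside the planned one. mak3 was tested against WT with lmFit and eBayes of limma, two-sided, adjusted by Benjamini-Hochberg across the probes (threshold 0.05), and the code was tested on simulated data. Alternatives changed the scaling, the floor, the filter on dim probes, the array weights, the averaging and the arrays included. The annotation gives 692 probes a single gene and 870 several, and leaves 1877 unnamed. The genes named are both members, the single-gene probes of the photosynthesis lists, and the 5 single-gene probes most correlated with each member. The members, lists and tests were chosen with earlier results of these data known.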

Additional observations from a re-analysis of the deposited data

Results flagged for a closer look

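PSAN in WT had 1 array set apart from the other 5. Array 5 was at a deposited intensity of 6.74 and the nearest, array 6, at 5.06. The gap was 0.679 of the range of all 6, above Dixon's 95% critical value of 0.625 for 6 values. It was 0.497 of the range after quantile scaling, which is below that value. Array 6 was averaged with array 5 as a repeat reading, which rests on their likeness and not on the labels. Without array 5 the mak3 minus WT difference of PSAN was -0.37 in place of -0.42. The 14 groups examined were 7 genes in 2 genotypes, and chance sets apart about 1 in 20 groups of independent values, which repeat readings are not.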

How the results depend on the processing

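Over 32 alternatives the mak3 minus WT difference kept its negative sign and did not pass for either gene, ranging from -0.47 to -0.02 for LHB1B2 and from -0.61 to -0.05 for PSAN, with the values closest to 0 under a common median. A common upper quartile, added after seeing the data, gave -0.07 and -0.10, and array weights, which were lowest for pair 1-2 in both genotypes, gave -0.20 and -0.17. Without the mak3 sample of pair 1-2 they were -0.17 and -0.31, and the cause of these shifts was not tested. The pair number as a block left both differences at -0.36 and -0.42 and changed no call (adjusted p = 0.398 and 0.407 in limma). It called 0 probes, with 458 at an unadjusted p under 0.05 against 134 without it. With all 12 arrays entered singly, where repeat readings pass as replicates and p is too low, there were 24 calls in limma and neither gene was among them (adjusted p = 0.205 for LHB1B2 and 0.146 for PSAN); every other alternative called 0. The list median ran from -0.23 to 0.10, so it has no settled sign. The unknown scaling of the deposited values and 3 samples for each genotype limit what can be seen.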
